A study of Mus musculus with 7 samples.

Results

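Mif, Ddt and Cd44 are the 3 genes described here, out of 55357 features in the deposited gene lists. They were taken by symbol (Mif, ENSMUSG00000033307; Ddt, ENSMUSG00000001666; Cd44, ENSMUSG00000005087). They were chosen by name with earlier results of the same comparison known, so their differences between groups are given as a description, with no test. Mouse liver, named as hepatocellular carcinoma tissue in the labels, was taken 2 weeks after plasmids were delivered by hydrodynamic tail vein injection and profiled cell by cell with 10x droplet RNA sequencing of 3′ ends. This injection is a fast high-volume one that brings plasmids into hepatocytes. All 7 samples carried the Nras and C-myc plasmids, and the labels give all of them the same batch. The 4 treated samples also received the IL-2/CD25 plasmid, named for the cytokine interleukin 2 and its receptor subunit CD25, and the 3 controls received none of it. The labels do not give the strain, age, sex or number of the animals, nor the promoters of the plasmids, and they do not say whether immune cells were enriched. They also do not say that samples came from separate animals, so a p-value here measures the spread between samples.

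Macrophage migration inhibitory factor (MIF) is a small cytokine that most cells hold ready-made and release under stress, and it is also an enzyme that converts a test substrate, D-dopachrome. D-dopachrome tautomerase (DDT, also called MIF-2) is its close relative in sequence and fold and shares its main receptor. That receptor is CD74, the invariant chain of MHC class II, which signals with CD44 as its partner, while MIF also acts on the chemokine receptors CXCR2, CXCR4 and ACKR3. CD44 itself binds hyaluronan, osteopontin, versican and serglycin, is linked to the cell cortex by the ERM proteins, and is widely used as a marker of activated and memory T cells. In liver tumours MIF and CD44 have been studied mainly in tumour cells and in myeloid cells, and DDT is known as an abundant enzyme of the liver.

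Mif and Ddt lie near each other on the same chromosome. In RefSeq on GRCm38.p6, Mif spans chr10:75859353-75860277 (925 bases), Ddt spans chr10:75771233-75773374 (2142 bases) and Cd44 spans chr2:102811141-102901669 (90529 bases), all on the minus strand. The build of the deposited files is not given in the sources used here. Of the 55357 feature identifiers, 52081 were found in GENCODE M21, which is built on GRCm38. The 250 bases before the start of each gene are shown because known inducers of Mif (HIF-1 and MYC) are among the pathway genes measured further on. They come from RefSeq's promoters on GRCm38.p6, with the regions chr10:75860278-75860527 for Mif, chr2:102901666-102901915 for Cd44 and chr10:75773375-75773624 for Ddt, all written 5′ to 3′ along the gene. The Cd44 start in this table lies a few bases inside the gene's widest RefSeq span. Capitals mark matches to 4 motifs searched on both strands. The E-box, which MYC and its relatives can bind, was spelled CACGTG. The core of the hypoxia response element was spelled ACGTG, or CACGT when read from the opposite strand, and is part of any E-box of that spelling. The cyclic AMP response element was spelled TGACGTCA. The GC box was spelled GGGCGG, or CCGCCC when read from the opposite strand.
Mif: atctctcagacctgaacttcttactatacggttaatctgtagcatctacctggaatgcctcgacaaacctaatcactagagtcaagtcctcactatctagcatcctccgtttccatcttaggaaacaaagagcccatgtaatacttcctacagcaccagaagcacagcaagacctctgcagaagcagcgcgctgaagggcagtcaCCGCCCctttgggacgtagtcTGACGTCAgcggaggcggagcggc
Ddt: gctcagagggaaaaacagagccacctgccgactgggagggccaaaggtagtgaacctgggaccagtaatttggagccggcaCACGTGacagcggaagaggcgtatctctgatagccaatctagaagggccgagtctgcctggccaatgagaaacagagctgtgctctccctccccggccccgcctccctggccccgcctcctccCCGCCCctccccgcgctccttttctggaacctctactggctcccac
Cd44: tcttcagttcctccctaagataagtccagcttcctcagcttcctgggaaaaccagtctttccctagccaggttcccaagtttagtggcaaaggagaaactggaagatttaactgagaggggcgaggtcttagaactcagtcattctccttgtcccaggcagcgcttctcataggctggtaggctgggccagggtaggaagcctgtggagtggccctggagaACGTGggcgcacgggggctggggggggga
The Mif window held TGACGTCA from 24 to 17 bases before the start and CCGCCC from 45 to 40 bases before it. The Ddt window held CACGTG from 169 to 164 bases before the start and CCGCCC from 46 to 41 bases before it. The Cd44 window held ACGTG from 29 to 25 bases before the start. Of 32851 mouse promoters of the same length, 1.55% held TGACGTCA, 6.02% held CACGTG, 16.6% held ACGTG or CACGT and 32.7% held GGGCGG or CCGCCC. These matches describe letters in the windows and nothing more.

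The controls held 9603, 7390 and 8759 cell barcodes with 76438139 to 181755269 UMIs in total, and the treated samples 7263 to 10637 barcodes with 37653600 to 47881379 UMIs. Of 62304 barcodes that passed the filters, 50777 were placed in 1 of 18 classes by UMIs of marker genes, and 11 classes had at least 20 cells in 2 or more samples of each group. Between 13.1 and 14.7% of passing barcodes in controls, and between 5.89 and 8.29% in treated samples, held markers of several classes and were left out. A further 10.5 to 15.9% in controls and 4.47 to 5.18% in treated samples met no gate. Pairs of samples shared 14 to 37 barcodes, at most 0.385% of the smaller library. Genes outside the gates gave a check of the classes, in UMIs of the gene per 1000000 UMIs of the class (CPM). Ptprc, the pan-leukocyte gene, was at 3763 to 3897 CPM in treated NK cells and at 15.9 to 34.3 CPM in control keratin-positive cells. The keratin-positive class is not the same kind of cell in the 2 groups. In controls it held Nras at 3196 to 3268 CPM and Krt19, a bile duct keratin, at 253 to 313 CPM. In treated samples it held Nras at 195 to 203 CPM and Krt19 at 1374 to 1781 CPM.

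Mif was lower in treated samples in all 11 classes, with no overlap between the groups in any of them. Levels are CPM summed over the cells of a class in a sample, and differences are between means of log2(CPM + 1). The median log2 difference over the 11 classes was -3.07, ranging from -1.54 to -4.18. Over all 111232 pairs of a gene and a class, 20.3% were lower and 30.6% higher in treated samples without overlap. All 3 genes passed the filter on low counts in each of the 11 classes, and in the fit to all genes of a class Mif lay among the lowest 0.640% (mature dendritic cells) to 5.05% (CD8 T cells) of fitted changes.

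Among tumour and myeloid cells, keratin-positive cells held most Mif in the controls, at 1823, 1816 and 1899 CPM. The treated samples with at least 20 such cells were at 102 and 100.1 CPM. Every control stood far above both treated values, and the means of 1846 ± 46.4 (SD, n = 3) and 101 ± 1.49 (SD, n = 2) differed 18.1-fold. The remaining treated samples held 10 such cells at 885 CPM and 6 at 47.8 CPM and were not used. Macrophages, gated by C1q genes, held 1320.4, 1306 and 1332 CPM in the controls and 151, 90.8 and 193 CPM in the treated samples that had enough cells. The controls were close to each other and the treated samples were all far below them, with a 9.49-fold difference of 1319.7 ± 13.01 (SD, n = 3) against 145 ± 51.3 (SD, n = 3). Monocytes held 1064, 1008 and 1164 CPM in controls and 101, 65.3, 50.7 and 101 CPM in treated samples. Their difference, 13.9-fold, was the second largest of the 11. The treated values rest on 25 to 108 Mif UMIs a sample, so counting error is a sizeable part of their spread. Type 2 conventional dendritic cells (cDC2) were at 915, 987 and 930.5 CPM in controls and 101, 111, 87.7 and 156 CPM in treated samples, an 8.41-fold difference. Mature dendritic cells were at 577, 698 and 1035 CPM in controls and 52.3, 34.4, 111 and 96.8 CPM in treated samples, an 11.1-fold difference. Neutrophils held 521, 509.5 and 659 CPM in controls and 67.3, 44.5, 49.0 and 54.4 CPM in treated samples, a 10.3-fold difference. In each of these myeloid classes the lowest control was several times the highest treated sample.

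Lymphocytes showed smaller differences. CD8 T cells held 777, 1024 and 979 CPM of Mif in controls and 186, 202, 197 and 202 CPM in treated samples, with means of 927 ± 132 (SD, n = 3) and 197 ± 7.38 (SD, n = 4), a 4.66-fold difference. The treated samples were nearly alike, and the lowest control was well above them. Conventional CD4 T cells were at 499.8, 283 and 557 CPM in controls and 155, 127, 126 and 184 CPM in treated samples. Control 2, with 24 cells and 32 Mif UMIs, was the closest to the treated group, and the 2.92-fold difference was the smallest of the 11 classes. Other T cells, which had no UMI of Cd4, Cd8a, Cd8b1 or Foxp3, were at 506, 415 and 598 CPM in controls and 140.3, 166, 154 and 178 CPM in treated samples, a 3.14-fold difference. NK cells and ILC1 held 395, 479 and 645 CPM in controls and 72.5, 68.5, 63.8 and 91.5 CPM in treated samples, a 6.69-fold difference. These cells were few in the controls (125 to 230) and many in the treated samples (2972 to 4464). B cells held 360.4, 483 and 579.9 CPM in controls and 102, 88.6, 74.0 and 116 CPM in treated samples, a 4.92-fold difference. In B cells and NK cells alike the controls were spread more widely than the treated samples but did not reach them.

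**Figure D1:**
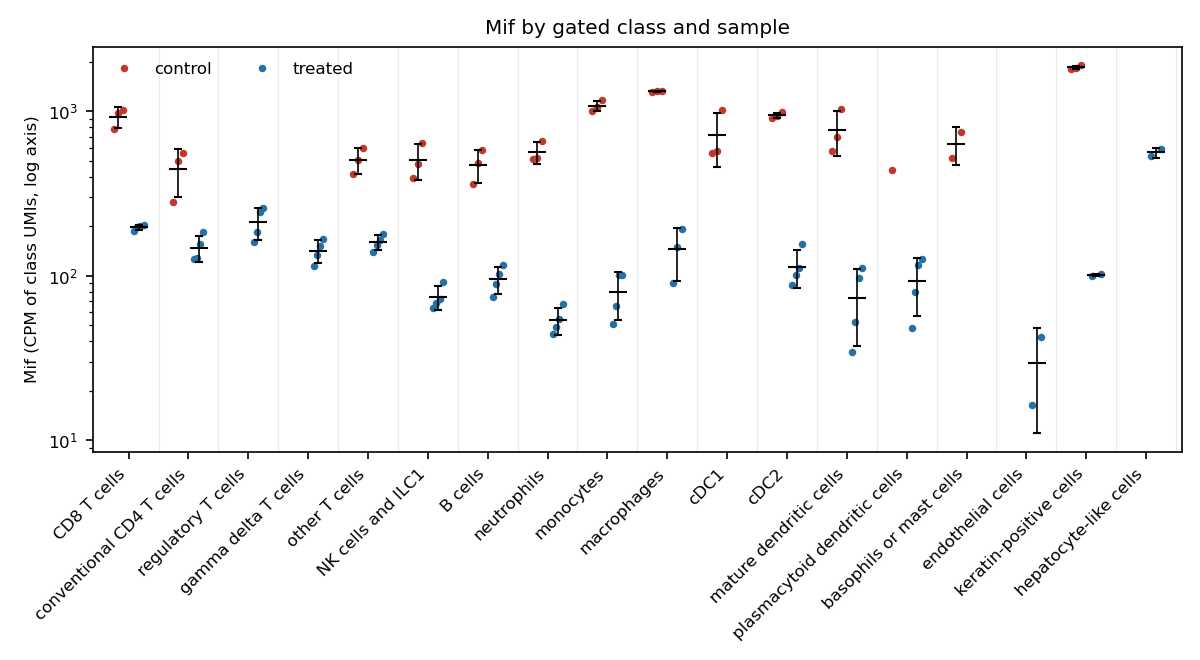
Mif level (CPM of the UMIs of a class, log axis) for each gated class along the horizontal axis, with 1 point per sample that had at least 20 cells and black bars for the mean ± SD where a group has more than 1 sample. Control points lie above treated points in all 11 classes that have both groups, from keratin-positive cells (1846 against 101 CPM) to conventional CD4 T cells (446 against 148 CPM).

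The order of Mif levels differed between the groups. In controls keratin-positive cells stood above macrophages, macrophages above monocytes and monocytes above cDC2, each in 3 of 3 samples and by more than the spread of the paired log2 differences. From cDC2 down through CD8 T cells, mature dendritic cells and type 1 conventional dendritic cells (cDC1, 573, 561 and 1014 CPM), neighbours did not differ beyond their spread. Other T cells, NK cells, B cells and conventional CD4 T cells formed the low end in controls, below neutrophils by more than the spread, and did not differ beyond it from one another in that order. In treated samples the highest level was in hepatocyte-like cells, at 590.2 and 534 CPM (562 ± 39.8, SD, n = 2), a class that had at most 2 cells in any control. Its barcodes had 0.116% mitochondrial UMIs and 443 CPM of Malat1 in treated 2, and 1.87% and 7394 CPM in treated 3. Other treated classes had at least 11555 CPM of Malat1. Whether these barcodes hold whole cells was not tested. Regulatory T cells (243, 184, 161 and 258 CPM) and CD8 T cells followed and did not differ beyond their spread. Gamma delta T cells, at 115, 151, 135 and 167 CPM, stood with other T cells and conventional CD4 T cells. Endothelial cells were lowest, at 16.5 and 42.7 CPM. Plasmacytoid dendritic cells were at 48.4, 116, 79.2 and 126 CPM in treated samples and at 438 CPM in the 1 control that had enough of them.

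Where the UMIs came from changed with the make-up of the samples. Keratin-positive cells held 65.7% ± 18.7 (SD, n = 3) of the Mif UMIs of gated control cells and monocytes 19.8% ± 12.2. In treated samples NK cells and ILC1 held 25.2% ± 4.33 (SD, n = 4), CD8 T cells 20.7% ± 1.05 and other T cells 19.9% ± 1.15.

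The share of cells with a UMI of Mif was also lower in treated samples. With cells thinned to 1000 UMIs each, 33.0% ± 5.68 (SD, n = 3) of control and 6.93% ± 1.09 (SD, n = 4) of treated NK cells had one. Without thinning the shares were 76.9% and 23.3%, at median depths of 3336 to 6382 UMIs in controls and 3032 to 4363.5 in treated samples. Thinned monocytes had a Mif UMI in 56.9% ± 2.85 of control and 8.32% ± 1.23 of treated cells, and thinned CD8 T cells in 44.9% ± 8.53 and 17.6% ± 2.36. No gated class lacks Mif by its known biology, so a share in cells without the gene could not be set beside these.

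Dividing cells were more frequent in the controls. Cells with at least 2 UMIs of 5 division genes were counted against cells with none, without thinning and at unequal depths. Cells in between were left out of the total, so these are not shares of a whole class. On this count dividing cells made up 44.0 to 54.4% in control and 4.30 to 7.48% in treated CD8 T cells. The ranges were 14.9 to 30.5% and 4.95 to 8.79% in NK cells, and 70.9 to 94.2% and 0 to 13.2% in keratin-positive cells. In cells with no UMI of these genes, Mif in CD8 T cells was 628 ± 154 CPM in controls and 195 ± 9.15 CPM in treated samples, a log2 difference of -1.65 beside -2.22 in all CD8 T cells. In NK cells the same restriction gave 371 ± 82.6 and 73.3 ± 11.9 CPM, a log2 difference of -2.32 beside -2.74. In neutrophils and monocytes it gave -3.40 and -4.08, beside -3.37 and -3.80. In cells without division UMIs Mif was lower in treated samples in each of these classes. Such cells can still be dividing, and the part of division in the Mif difference was not tested. Within samples, with cells thinned to 1000 UMIs, none of 15 comparisons of dividing with other cells (5 classes, 3 genes) passed an adjusted p of 0.05 in exact two-sided sign-flip permutation tests over samples, and 1 had an unadjusted p below it (Cd44 in cDC2, p = 0.047, adjusted p = 0.625). The design could hardly have given a call: the smallest exact permutation p is 0.016 with 7 samples and 0.125 with 4, and at least 5 of the 15 tests would have to reach 0.016 for any to pass. With that thinning, Mif was higher in dividing than in other CD8 T cells in 5 of 7 samples, by a mean of 0.13 ± 0.65 (SD) on the log2 scale. In dividing NK cells it was higher in 5 of 7, by a mean of 0.23 ± 0.47. Without thinning, Mif was higher in dividing CD8 T cells in 7 of 7 samples, by 0.45 ± 0.35 (SD), and in dividing NK cells in 7 of 7, by 0.48 ± 0.40. Each had an exact permutation p of 0.016, the smallest that 7 samples allow, and an adjusted p of 0.117.

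RNA measures also moved with the group. Ribosomal protein genes took 23.9 to 25.1% of UMIs in control and 12.4 to 14.7% in treated NK cells, and 24.0 to 24.9% against 10.6 to 11.9% in keratin-positive cells. In CD8 T cells their share was 22.4 to 26.4% in controls and 24.1 to 25.8% in treated samples, and Mif differed 4.66-fold there. Malat1, a nuclear RNA, was at 8276 to 10918 CPM in control and 19879 to 22324 CPM in treated CD8 T cells. The part of these measures in the Mif difference was not tested. With mitochondrial and ribosomal protein genes left out of the totals, Mif remained lower in treated samples in all 11 classes.

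Droplets also hold RNA set free from broken cells, and the control libraries had far more Mif to give. Over all their UMIs, Mif stood at 1253, 1140.2 and 1655 CPM in controls and at 113, 117, 106 and 136 CPM in treated samples. To estimate free RNA, the share of a class's UMIs that fell on markers of another class was divided by the share those markers took of the whole sample, on the assumption that free RNA is composed like the whole sample. These marker lists were also those of the gates, and cells that passed the gate of such a foreign list had been left out as mixed. The estimates could therefore be too low, and by how much was not tested. The median over marker lists gave 6.17 to 21.4% free RNA in control classes and 2.41 to 9.23% in treated classes.

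At that median the free Mif in controls came to 121 ± 49.5 CPM (SD, n = 3) in CD8 T cells, and the difference in free Mif was 15.8% of the measured difference of 730.1 CPM. In monocytes, macrophages and cDC2 it was 12.9, 15.6 and 15.0% of the measured difference, and in mature dendritic cells 20.6%. In NK cells it was 32.7%, in neutrophils 37.5%, in B cells 39.4%, in other T cells 44.0% and in conventional CD4 T cells 46.3%. For keratin-positive cells it was 6.90%. The median over the 10 immune classes was 26.6%. Free Mif in the immune classes of controls was of similar size, from 121 CPM in CD8 T cells to 198 CPM in neutrophils. A class with a large measured difference therefore gets a small percentage by arithmetic. Conventional CD4 T cells, with the smallest measured difference (298 CPM), had the largest percentage. With this free RNA subtracted, Mif remained lower in treated samples in all 11 classes.

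Estimates that take keratin-positive cells as the sole source, scaled by keratin genes, were lower: 11.2% in CD8 T cells, 22.3% in NK cells, 22.2% in neutrophils, 7.76% in monocytes and 36.2% in conventional CD4 T cells, with free Mif in treated samples taken as 0. Traced by Nras in place of keratins, the same classes gave 13.4, 24.5, 22.7, 10.8 and 41.6%.

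The highest marker list was used as an upper estimate, and for some classes it exceeded the whole difference. Leaving out mixed cells could lower this estimate too. It gave 27.2% in CD8 T cells, 16.5% in monocytes, 20.3% in macrophages, 57.7% in neutrophils, 65.4% in cDC2 and 68.5% in other T cells. It gave 117% in B cells, 130.1% in NK cells and 201% in conventional CD4 T cells. In NK cells and conventional CD4 T cells the high value came from the B cell list, which asked for 36.6% and 48.7% free RNA on average in controls, while the keratin list asked for 10.2% and 11.7% and the neutrophil list for 9.23% and 8.42% in the same cells. The B cell list had 1223 to 2870 UMIs in a control library, against 145861 to 827241 for the keratin list and 1321910 or more for the neutrophil list. An alternative, chosen after the data were seen, took the highest among lists with at least 10000 UMIs in the sample. It left out free Mif in treated samples, as the keratin and Nras estimates did. The median and the highest of all lists subtracted it, so their percentages are not the same measure. This alternative gave 23.7% in CD8 T cells, 38.8% in neutrophils and 45.1% in NK cells. It gave 66.1% in other T cells, 72.9% in B cells and 79.4% in conventional CD4 T cells.

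Read the other way, free RNA alone would have to make up 54.1% of the UMIs of control CD8 T cells, 74.0% of those of monocytes and 87.1% of those of macrophages to give their Mif difference, and 129% of those of keratin-positive cells, more than all of them. In conventional CD4 T cells 22.1% would be enough, in other T cells 25.7%, in B cells 28.1% and in NK cells 32.1%. With subtraction at the highest list, Mif turned to higher in treated samples in conventional CD4 T cells, NK cells, B cells and cDC2, as given under the alternatives. There values below 0 were set to 0 and means of log2(CPM + 1) were compared, so a control set to 0 weighs heavily. The highest list reached 89.1% free RNA in a control for NK cells and 73.7% for cDC2. As another measure, the mean control level less the free Mif of the highest list was set against the measured treated mean. It was 0.538-fold in conventional CD4 T cells, 0.623-fold in B cells, 2.62-fold in NK cells and 3.91-fold in cDC2. It was 3.58-fold in CD8 T cells, 7.32-fold in macrophages, 11.2-fold in monocytes and 16.9-fold in keratin-positive cells. In NK cells and cDC2 the direction at the upper estimate thus depended on the measure.

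**Figure D2:**
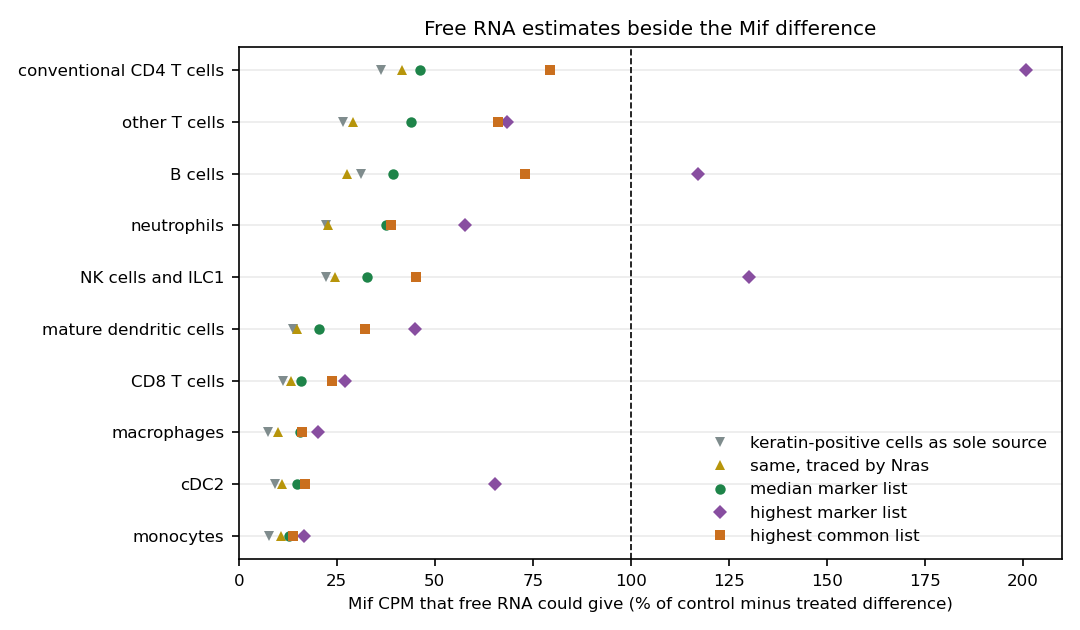
Estimated part of the Mif difference that free RNA could give (percent of the control minus treated difference in CPM) for 10 immune classes, with 1 symbol per way of estimating. Not every way of estimating subtracts free Mif in treated samples, as given in the text. The dashed line marks 100%. Monocytes, macrophages and CD8 T cells reach at most 27.2% by any of these estimates, while the highest marker list exceeds 100% in B cells, NK cells and conventional CD4 T cells.

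Reads of Mif can also fall on its processed copies. The 9 Mif pseudogenes in the gene lists held 3418 UMIs in the controls beside 421453 of Mif (0.811%) and 209 beside 16478 in treated samples (1.27%).

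Ddt, the relative of Mif, differed in the same direction but less. It was lower in treated samples without overlap in 9 of 11 classes, higher in keratin-positive cells and overlapping in mature dendritic cells, with a median log2 difference of -0.80. The background of 20.3% lower and 30.6% higher pairs applies here too. CD8 T cells held Ddt at 91.4, 88.8 and 74.7 CPM in controls and 39.0, 44.6, 40.2 and 38.6 CPM in treated samples. The means, 84.9 ± 8.98 (SD, n = 3) and 40.6 ± 2.72 (SD, n = 4), lay 1.04 apart on the log2 scale, well over the spread of either group. Conventional CD4 T cells were at 77.2, 97.2 and 94.4 CPM in controls and 43.0, 35.5, 43.5 and 43.5 CPM in treated samples. NK cells and ILC1 were at 62.7, 66.7 and 75.6 CPM against 35.1, 34.1, 33.2 and 36.6 CPM. In these 3 lymphocyte classes the control level was 2.06, 2.13 and 1.94 times the treated level. Macrophages had 55.4, 54.2 and 57.3 CPM of Ddt in controls and 24.6, 22.7 and 26.0 CPM in treated samples, the largest Ddt difference at -1.16 on the log2 scale, but the treated values rest on 4 to 9 UMIs a sample. Monocytes were at 54.1, 57.5 and 57.0 CPM in controls and 25.7, 29.5, 26.3 and 35.6 CPM in treated samples. The remaining classes with lower Ddt were B cells (-0.76), neutrophils (-0.80), cDC2 (-0.57) and other T cells (-0.49).

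Keratin-positive cells held Ddt at 56.3, 53.9 and 55.9 CPM in controls and 69.3 and 70.7 CPM in treated samples, the treated ones higher by 0.33 on the log2 scale. This direction depended on the scaling: relative to the bulk of genes, by TMM scaling, it was -0.53. TMM moved the median of all genes in this class by -0.87 against CPM, by -0.23 in neutrophils, -0.14 in monocytes and -0.11 in B cells, and by less than 0.1 elsewhere. The highest Ddt level of any class was in treated hepatocyte-like cells, at 1180.3 and 809.8 CPM (995 ± 262, SD, n = 2), where DDT is a known liver enzyme. The low Malat1 of this class is given above. In controls conventional CD4 T cells and CD8 T cells had the highest mean Ddt (89.6 ± 10.8 and 84.9 ± 8.98 CPM) and did not differ beyond their spread, and neutrophils had the lowest (27.4 ± 3.25 CPM). Keratin-positive cells held 52.5% ± 23.1 of the Ddt UMIs of gated control cells, and NK cells 31.8% ± 7.43 of those of treated cells, with 14.0% ± 10.1 in hepatocyte-like cells.

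Cd44 did not follow the other 2 genes. It was higher in treated samples without overlap in 5 classes, lower in 2 and overlapping in 4, with a median log2 difference of 0.38, where 30.6% of all gene and class pairs were higher and 20.3% lower without overlap. Neutrophils showed the largest difference: Cd44 was at 535, 508 and 504 CPM in controls and at 1282, 1266, 1444 and 1265 CPM in treated samples. All treated samples stood far above the highest control, and the means of 516 ± 16.7 (SD, n = 3) and 1314 ± 87.1 (SD, n = 4) differed 2.54-fold. Among all 7177 genes fitted in neutrophils, 92.0% had a lower fitted change. With cells thinned to 1000 UMIs, 42.1% ± 1.02 of control and 68.3% ± 3.14 of treated neutrophils had a Cd44 UMI, and 63.1% and 87.0% without thinning, at median depths of 1567.5 to 1823.5 and 2175 to 2580 UMIs. In B cells, the immune class lowest in Cd44, the thinned shares were 8.20% ± 3.56 and 6.16% ± 0.801, at median depths of 1835.5 to 2441 and 2526 to 3032 UMIs.

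Monocytes held Cd44 at 430.2, 481 and 483 CPM in controls and at 645, 639, 681 and 564 CPM in treated samples, a log2 difference of 0.44. Macrophages held 360.3, 357 and 411 CPM in controls and 413, 630.1 and 479 CPM in treated samples, a log2 difference of 0.41 with a wide spread on the treated side. In both classes every treated sample was above every control, but in macrophages the highest control (411 CPM) and the lowest treated sample (413 CPM) nearly touched. Other T cells were at 242, 158 and 223 CPM in controls and 255, 278, 296 and 272 CPM in treated samples. NK cells and ILC1 were at 185, 155 and 178 CPM in controls and 186, 188, 208 and 188 CPM in treated samples. The NK values nearly touch, and their log2 difference of 0.16 turned to -0.034 with mitochondrial and ribosomal protein genes left out of the totals.

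CD8 T cells, where CD44 is the usual mark of antigen experience, had 147, 189.9 and 136 CPM in controls and 188, 159, 181 and 191 CPM in treated samples, which overlap. Conventional CD4 T cells (191, 221 and 189 against 241, 198, 233 and 237 CPM), cDC2 (166, 141 and 148 against 172, 273, 268 and 165 CPM) and mature dendritic cells (269, 286 and 277 against 411, 259.6, 364 and 440.2 CPM) had overlapping groups too.

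B cells and keratin-positive cells went the other way. B cells held Cd44 at 122, 97.4 and 113 CPM in controls and 74.7, 65.5, 81.3 and 56.8 CPM in treated samples, a log2 difference of -0.67, with no overlap. Subtracting free RNA turned this to 0.093. Keratin-positive cells were at 679.6, 777 and 734 CPM in controls and 555 and 247 CPM in treated samples, a log2 difference of -0.98, in a class whose cells differ between the groups as given above. Hepatocyte-like cells (18.4 and 28.7 CPM) and endothelial cells (9.87 and 26.3 CPM) had the least Cd44 of the treated classes, and B cells the least of the control classes. In controls the order ran from keratin-positive cells to neutrophils, monocytes and macrophages, each step larger than the spread of the paired differences, and then through mature dendritic cells to lymphocytes, where neighbours did not differ beyond it. In treated samples neutrophils stood above monocytes beyond the spread, while monocytes and plasmacytoid dendritic cells (445, 690.3, 667 and 671 CPM) did not differ. Keratin-positive cells held 64.7% ± 19.4 of the Cd44 UMIs of gated control cells, and in treated samples NK cells held 32.0% ± 2.89 and neutrophils 14.9% ± 1.71.

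**Figure D3:**
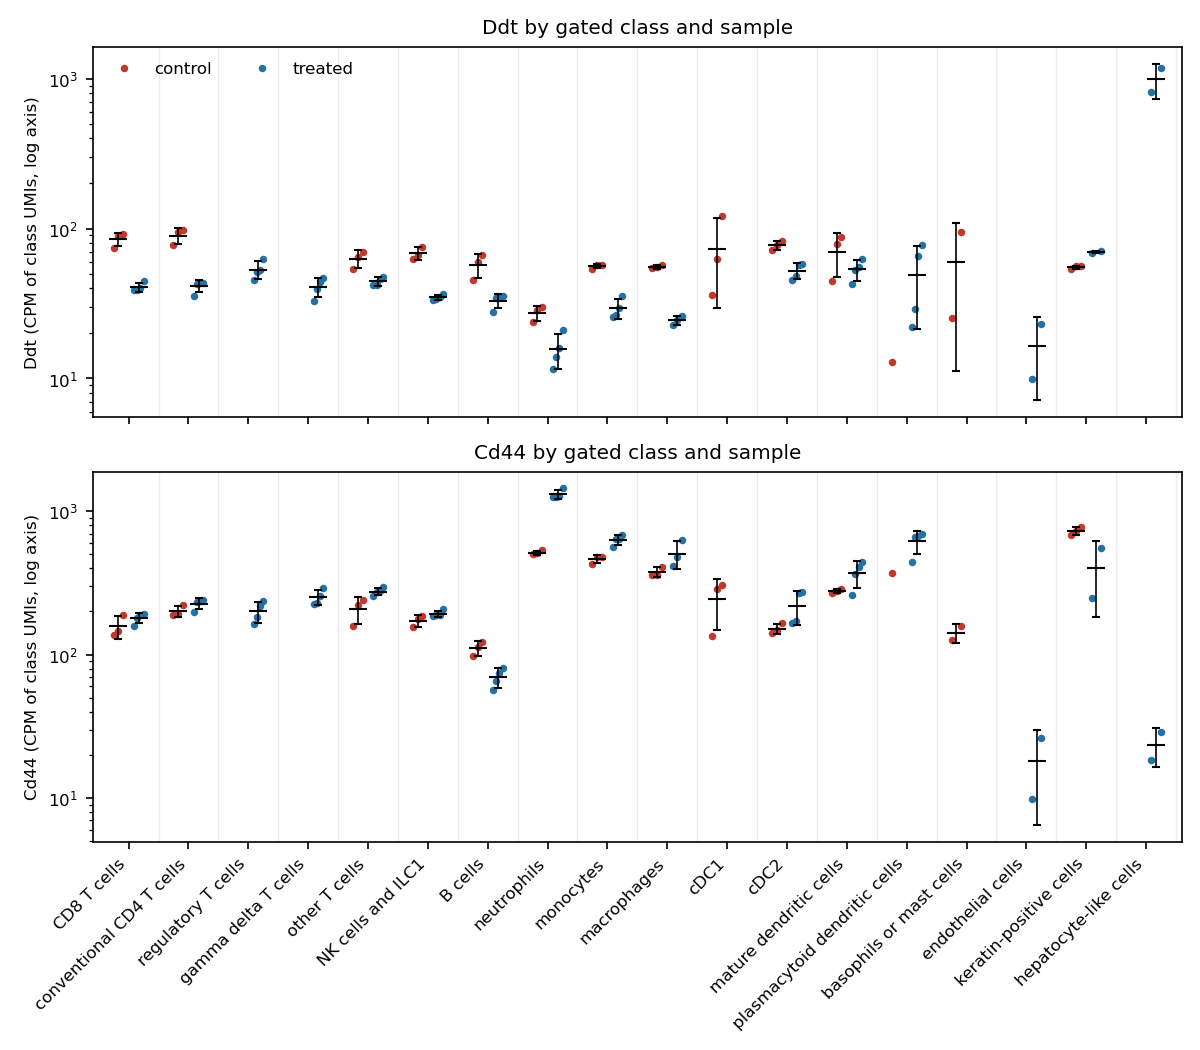
Ddt (top) and Cd44 (bottom) levels in CPM of the UMIs of a class, on log axes, for each gated class, with 1 point per sample that had at least 20 cells and black bars for the mean ± SD. Ddt is lower in treated samples in 9 of 11 classes that have both groups and highest in treated hepatocyte-like cells (995 CPM), while Cd44 is highest in treated neutrophils (1314 CPM).

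Over the 11 classes with both groups, averaged over all samples of a class, control and treated together, Mif levels followed Ddt levels with a Pearson r of 0.44 and Cd44 levels with an r of 0.14. These 11 points share their libraries, and as the groups are averaged together, in unequal numbers between classes, both r and the likeness of other genes mix group differences with differences between classes. Of 6448 genes with a mean of at least 20 CPM, the 5 most like Mif over the 11 classes were Romo1 (r = 0.93), Ppa1 (0.91), St13 (0.90), Hspa9 (0.88) and Galk1 (0.88). Those most like Ddt were Bex3 and Tarbp2 (0.96 each), Ciao2b (0.96), Slc5a3 (0.95) and Srrm1 (0.95). Those most like Cd44 were Gsr (0.94), Mettl9 (0.92), Mafg (0.92), Abhd5 (0.92) and Gng12 (0.91).

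A list of 33 genes in 12 groups that surround these 3 proteins was tested with edgeR's quasi-likelihood test, with Benjamini-Hochberg adjustment over all genes of a class and a threshold of 0.05. Of 243 tests of a list gene in a class, 44 were higher and 97 lower in treated samples. In CD8 T cells 2 of 21 tested list genes rose and 11 fell, where 27.2% of all genes rose and 29.3% fell. NK cells and ILC1 had 5 of 23 rise and 11 fall, against 22.2% and 22.0% of all genes. Among neutrophil genes 5 of 20 rose and 8 fell, against 25.8% and 27.3%. Monocytes had 8 of 22 rise and 8 fall, against 25.2% and 25.1%. Macrophages had 8 of 24 rise and 8 fall, against 13.9% and 15.9%. For cDC2 the counts were 4 and 7 of 21, against 21.2% and 22.6%. Mature dendritic cells had 2 and 5 of 19, against 10.3% and 12.6%, and without control 3 the 5 became 3. B cells had 3 and 5 of 20, against 10.8% and 15.3%. In conventional CD4 T cells 1 rose and 7 of 18 fell, against 7.17% and 10.5%, but without control 1 only 2 of 19 fell. In other T cells 1 rose and 10 of 24 fell, against 8.51% and 10.5%. Without control 3, 6 of 24 fell and 0 rose there, and without control 1, 8 fell and 0 rose. Keratin-positive cells had 5 of 31 rise and 17 fall, against 29.0% and 35.8%. The balance of these calls depended on free RNA. With it subtracted, 46 of 218 tests were higher and 49 lower, and with cells thinned to 1000 UMIs 29 of 169 were higher and 49 lower.

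Of the MIF receptors, Cxcr4 rose in 9 of the 11 classes tested and fell in none. Beside this and the counts of classes that follow, 7.17 to 29.0% of all genes of a class rose and 10.5 to 35.8% fell. Neutrophils held 59.2 ± 8.13 CPM (SD, n = 3) of Cxcr4 in controls and 626 ± 46.0 CPM (SD, n = 4) in treated samples, a fitted log2 change of 3.17 ± 0.13 (SE; edgeR adjusted p = 1.9e-08). In CD8 T cells Cxcr4 went from 40.6 ± 21.8 to 202 ± 32.4 CPM, a log2 change of 2.42 ± 0.24 (SE; edgeR adjusted p = 1.1e-06). Its log2 change was 1.98 in macrophages, 1.91 in conventional CD4 T cells and 1.84 in monocytes. NK cells, at 62.3 ± 21.6 and 76.0 ± 16.0 CPM (log2 change 0.09), and keratin-positive cells (0.22) did not pass the test. With free RNA subtracted, Cxcr4 rose in 8 classes.

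Cd74, the shared receptor of MIF and DDT, moved in opposite directions by cell type. It rose in 3 antigen-presenting classes, from 5830.5 ± 904 to 18229 ± 1308 CPM in macrophages (log2 change 1.57 ± 0.22, SE; edgeR adjusted p = 0.00016), by 0.74 in mature dendritic cells and by 0.63 in monocytes. In B cells (9477 ± 104 and 11663 ± 639 CPM) and cDC2 (16765 ± 473 and 19065 ± 1462 CPM), where Cd74 was already high, it did not pass the test. It fell in 6 classes that hold little of it, among them NK cells (409 ± 24.6 to 123 ± 30.1 CPM, log2 change -1.80 ± 0.16, SE; edgeR adjusted p = 3.7e-06) and CD8 T cells (315 ± 12.3 to 106 ± 24.3 CPM, -1.67). With free RNA subtracted, 3 classes still rose and 1 of 8 tested fell.

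Cxcr2, a chemokine receptor of neutrophils, rose in neutrophils from 752 ± 61.7 to 1593 ± 135 CPM (log2 change 0.84 ± 0.10, SE; edgeR adjusted p = 2.9e-05). It fell in monocytes, NK cells and keratin-positive cells, where it was at or below 29.3 CPM in controls. Ackr3, the atypical receptor that also binds MIF, was tested in keratin-positive cells and was higher there in treated samples, at 50.4 ± 28.6 against 2.51 ± 0.875 CPM. That class had 2 treated samples, and its cells differ in kind between the groups as given above. Treated neutrophils held more Cd44, Cxcr4 and Cxcr2 than control neutrophils, and 10.3-fold less Mif, where Cd44 and Mif got no test. More list genes fell than rose in neutrophils, as given above. Cops5, an intracellular binding partner of MIF, fell in 9 of 11 classes with a median log2 change of -0.65, for example from 74.3 to 48.2 CPM in CD8 T cells (log2 change -0.76 ± 0.13, SE; edgeR adjusted p = 0.00027). With free RNA subtracted Cops5 fell in 7 of 11 classes.

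Of the inducers, Hif1a, the oxygen-regulated factor, fell in 10 of 11 classes, with the largest changes in monocytes (399 to 177 CPM, log2 change -1.29 ± 0.12, SE; edgeR adjusted p = 2.7e-06) and macrophages (-1.26). B cells, with a log2 change of 0.07, did not pass. With free RNA subtracted Hif1a fell in 6 of 11 classes. Myc fell in all 11 classes, with a median log2 change of -2.27. Its reads can come from the plasmid as well as from the gene of the mouse, and control keratin-positive cells held 2335 ± 175 CPM of it. With free RNA subtracted it fell in 1 class and rose in 3, among 9 classes tested.

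Genes of CD44 ligands and hyaluronan synthesis fell in 29 of 33 tests, where 10.5 to 35.8% of all genes of a class fell. With free RNA subtracted they fell in 12 of 24 tests. Spp1, which encodes osteopontin, fell in all 11 classes with a median log2 change of -3.84, but in 2 of the 7 classes tested with free RNA subtracted, and control keratin-positive cells held 4129.9 ± 180.2 CPM of it. Vcan, which encodes the proteoglycan versican, fell in all 10 classes tested. Monocytes, its main source, went from 994 ± 57.7 to 310.1 ± 133 CPM (log2 change -1.78 ± 0.24, SE; edgeR adjusted p = 5.8e-05) and macrophages from 454 ± 54.0 to 13.1 ± 14.3 CPM (-5.41), and it fell in all 5 classes that could be tested with free RNA subtracted. Srgn, which encodes the granule proteoglycan serglycin, fell in 7 of 11 classes, from 2091 ± 140.1 to 968 ± 218 CPM in monocytes (-1.24). With free RNA subtracted Srgn fell in 4 of 11 classes and rose in 1. In neutrophils, which had the highest level (4356 ± 343 and 5560.2 ± 527 CPM), Srgn did not pass. Has2 and Has3, hyaluronan synthases, were too low to be tested in any class.

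Hmmr, a hyaluronan-binding protein of the mitotic spindle, fell in 8 of 10 classes, among them CD8 T cells (74.6 ± 35.4 to 2.73 ± 1.40 CPM) and NK cells (25.9 ± 13.4 to 0.269 ± 0.119 CPM), the classes whose share of dividing cells was lower in treated samples as given above. With free RNA subtracted Hmmr fell in 6 of 8 classes and rose in 1. Among the linkers, Msn (moesin) rose in 5 of 11 classes, most in neutrophils, from 369.7 ± 25.1 to 832 ± 67.5 CPM (log2 change 0.93 ± 0.10, SE; edgeR adjusted p = 9.6e-06), and fell in keratin-positive cells (-1.94). Ezr (ezrin) rose in B cells (0.76) and NK cells (0.30) and fell in macrophages (-0.79) and monocytes (-0.60). Rdx (radixin) fell in CD8 T cells, conventional CD4 T cells and keratin-positive cells.

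Of the proteases that shed CD44, Mmp14 rose in macrophages from 37.2 ± 8.97 to 326 ± 19.3 CPM (log2 change 3.05 ± 0.19, SE; edgeR adjusted p = 4.5e-07) and Adam17 in macrophages (1.55) and monocytes (0.55), while Adam10 passed in none of 11 classes. Of the enzymes that process CD74, Sppl2a rose in 6 classes and fell in none, and Ctss rose in macrophages (1728 ± 197 to 3517 ± 185 CPM, log2 change 0.95) and fell in 7 classes, or in 4 of 10 with free RNA subtracted. Syk, a kinase downstream of CD74 and of CD44, rose in 5 of 10 classes, by 1.02 in macrophages and 0.93 in monocytes. Esrp1, the splicing factor that favours variant forms of CD44, was tested in keratin-positive cells and was at 27.8 ± 11.2 CPM in treated samples and almost at 0 in controls. That class had 2 treated samples, and its cells differ in kind between the groups as given above. Treated macrophages held more Cd74, Ctss, Syk, Mmp14 and Adam17 than control macrophages, all past the test, and 9.49-fold less Mif, which got no test. As many list genes fell as rose in macrophages, as given above, with Hif1a and Vcan among those that fell. These treated macrophages were 28 to 37 cells a sample, which limits how finely their values are known.

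**Figure D4:**
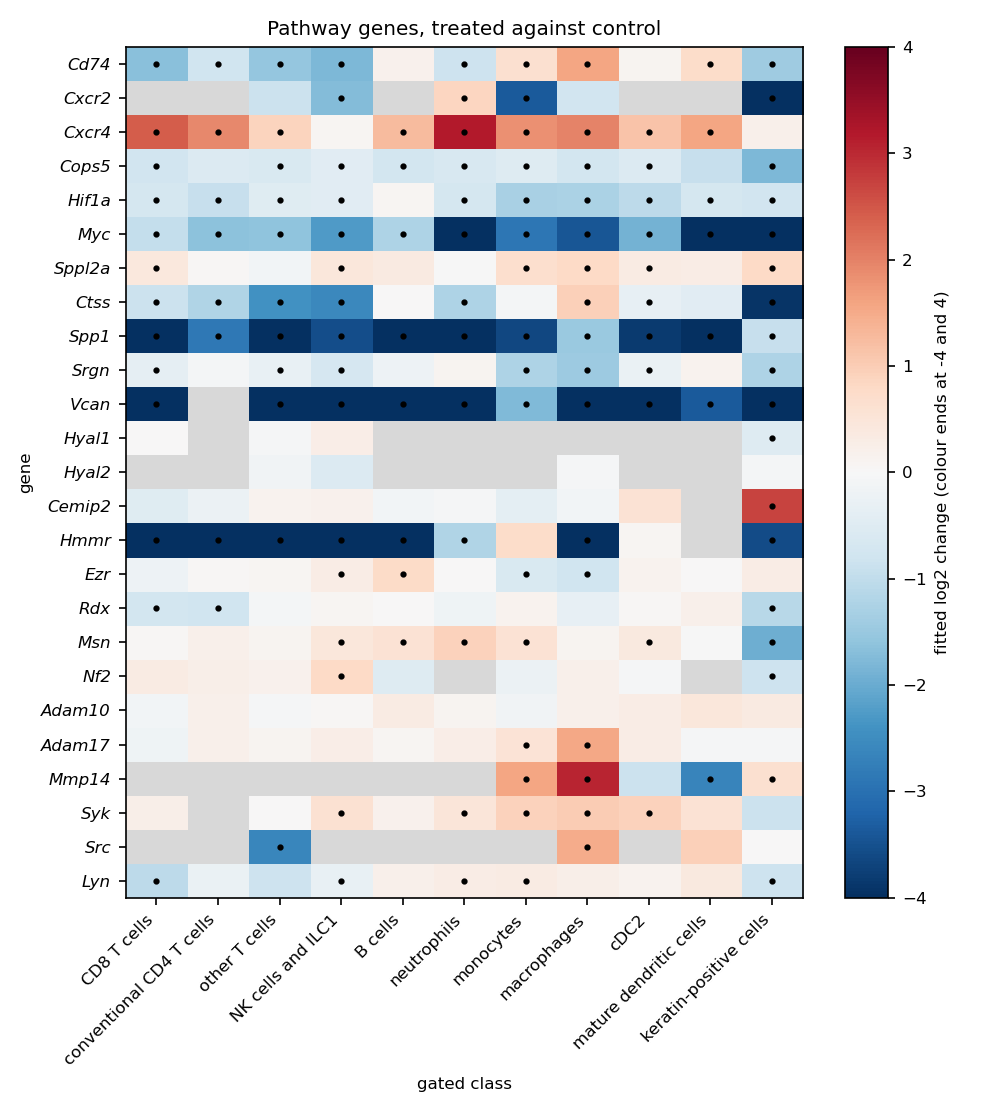
Fitted log2 change (treated against control, colour from -4 in blue to 4 in red) for the list genes tested in at least 4 classes, with genes in rows and gated classes in columns. A black dot marks an adjusted p under 0.05 and grey marks a gene not tested there. Cxcr4 is red with a dot in 9 of 11 columns, and Hif1a, Myc, Spp1 and Vcan are blue in nearly all of theirs.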

How the data were processed

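The authors deposited, for each of 7 samples, raw UMI counts per gene and cell barcode in the 10x matrix format. Tools named, per the submitters' processing notes, are Cell Ranger 7.0.0 and bcl2fastq 5.0.1, and the genome build is not given in the sources used here. The members and all gene lists were chosen with earlier results of these data known. Barcodes were kept with at least 500 UMIs, 200 genes and under 20% mitochondrial UMIs. A cell passed a class's gate with at least 2 different markers of its list (3 for neutrophils and keratin-positive cells, 4 and 1% of UMIs for hepatocyte-like cells), a list share of at least 2 per 10000 UMIs and at least 0.5 times the list's share of the whole sample. Cells passing 1 gate entered that class, and cells with markers of several classes were left out as mixed, which also removes many doublets. The exception was T cells that also passed the NK gate, which were kept as T cells. Names of classes therefore mean cells gated by markers, with no clustering. For each class with at least 20 cells in a sample, UMI counts were summed and given as CPM of that sum, and differences are between means of log2(CPM + 1). The 3 genes got no test of the group difference. The named genes are the 3 members in every class, the list genes past the threshold or that are receptors, and the 5 genes most like each member. List genes were tested with edgeR 4.0.16 in R 4.3.3 (TMM, filterByExpr), a fit tested on simulated data beforehand. Free RNA was estimated from foreign marker lists, as the report describes. Means ± SD are over samples, and no counting intervals are given. Alternatives were other totals, scalings (median of ratios, DESeq2 1.42.0), gates, filters, thinning, free RNA subtraction, the replicate number as a block and each sample left out. 1 planned comparison within CD8 T cells is not reported here. The data did not show that the replicate numbers of the titles pair the samples. Other software was scikit-learn 1.9.0, pandas 2.3.3, statsmodels 0.14.6, matplotlib 3.10.9, scipy 1.17.1, numpy 2.4.6 and Python 3.11.15.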

Additional observations from a re-analysis of the deposited data

Results flagged for a closer look

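In 36 groups of 4 treated samples 5 held 1 sample far from the other samples, where chance gives about 1 in 20 groups. Ddt in conventional CD4 T cells was 35.5 CPM in treated 2, beside 43.0 to 43.5 CPM in the others, and Ddt in B cells was 27.7 CPM in treated 1, beside 34.5 to 35.6 CPM. Cd44 in neutrophils was 1444 CPM in treated 3, beside 1265 to 1282 CPM, and Cd44 in NK cells and ILC1 was 208 CPM in the same sample, beside 186 to 188 CPM. Cd44 in plasmacytoid dendritic cells was 445 CPM in treated 1, beside 667 to 690.3 CPM, from 21 cells.

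Some classes moved against the others, with all samples of each class on 1 side, and these differences between classes were not tested. Ddt was higher in treated keratin-positive cells (log2 difference 0.33) and lower in 9 other classes. Cd44 was lower in treated B cells (-0.67) and keratin-positive cells (-0.98) and higher in 5 other classes.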

How the results depend on the processing

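Mif stayed lower in treated samples in all 11 classes under every alternative except free RNA subtracted at the highest list, where the median became -1.96 and Mif turned to 2.81 in conventional CD4 T cells, 0.36 in NK cells, 1.84 in B cells and 0.066 in cDC2. At that list the free RNA part of the Mif difference was 61.6% in the median. The Ddt median was -1.03 with TMM, -1.04 with median-of-ratios scaling, -1.10 at the highest list and -0.63 with a pseudocount of 10, and Ddt in keratin-positive cells turned to -0.53, -0.43 and -0.13 (TMM, median of ratios, thinned). The Cd44 median was 0.59 with free RNA subtracted and 1.19 at the highest list. Cd44 turned to -0.034 (totals without mitochondrial and ribosomal genes) and -0.021 (thinned) in NK cells, and to 0.093 and 3.08 (free RNA subtracted, highest list) in B cells. Leaving out 1 sample gave medians of -3.23 to -2.95 for Mif, -0.91 to -0.76 for Ddt and 0.24 to 0.38 for Cd44, a free RNA part of 24.0 to 29.9%, and 40 to 45 list calls higher and 81 to 92 lower.

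Thinned, 29 list calls were higher and 49 lower, with fewer UMIs tested, and with free RNA subtracted 49 were lower. Free RNA subtraction reversed Cd74 in keratin-positive cells (2.41) and neutrophils (2.00), Lyn in keratin-positive cells (0.032, and 0.59 thinned), Spp1 in macrophages (0.067), Srgn in keratin-positive cells (5.50) and Myc in B cells (0.67), CD8 T cells (1.70), cDC2 (8.24), conventional CD4 T cells (2.82), macrophages (0.17), monocytes (0.44) and other T cells (0.21). Thinning reversed Cops5 in other T cells (0.14). The cause of these changes was not tested. The median difference in the share of cells with a UMI was -28.7 percentage points for Mif (-40.1 thinned to 2000 UMIs, -41.6 without thinning), -2.42 for Ddt (-13.4 without thinning) and 2.28 for Cd44, which turned to -5.17 without thinning, at unequal depths.

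With the replicate number as a block, 41 list calls were higher and 88 lower. Same-numbered samples correlated by only -0.0515 to 0.0928 in their deviations. In conventional CD4 T cells, neutrophils and monocytes, however, each sample correlated best with its own number. These values do not show pairing and do not settle that there is none.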
